A study of Mus musculus with 8 samples.

Results

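Wnt signalling was followed here through the 50 genes of its surface and nuclear machinery that the deposited gene lists hold, in tumour cells and host cells of small cell lung cancer allografts grown in 3 sites of the mouse. The members were taken by symbol: every gene named Wnt, Fzd, Sfrp or Dkk with a number, plus Frzb, Wif1, Lrp5, Lrp6, Axin2, Lef1, Tcf7, Tcf7l1, Tcf7l2, Porcn, Wls, Rnf43 and Znrf3. They are 50 of 22056 genes, and comprise 19 ligands, 2 genes of ligand secretion, 10 Frizzled receptors, 2 co-receptors, 10 secreted antagonists, 3 feedback inhibitors and 4 TCF/LEF factors. The rule names genes by symbol and sets no threshold on a measured value, though it was written with earlier results of these data known.

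Every group carried N2N1G, 1 mouse tumour line of this neuroendocrine lung cancer with a green fluorescent reporter (eGFP). About 1000000 cells were transplanted for each allograft and the tumours were taken after 3 weeks. The brain group (2 libraries) and the subcutaneous group (3 libraries, flank) were started by direct injection and the liver group (3 libraries) through the tail vein, so in comparisons with liver the route and the site cannot be told apart. Sorted cells were profiled by 10x Genomics 3′ single-cell RNA sequencing, which counts unique molecular identifiers (UMIs), each standing for 1 captured RNA molecule. The labels do not say which libraries came from separate mice or give the mice's strain, age or sex, so p-values measure only the spread between these libraries.

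In the canonical Wnt pathway, a lipid-modified ligand binds a Frizzled receptor together with the co-receptor Lrp5 or Lrp6, β-catenin escapes destruction, and TCF/LEF factors switch on target genes. Porcn adds the lipid and Wls carries the ligand to the cell surface. Secreted Frizzled-related proteins (Sfrp, Frzb) and Wif1 bind ligands, Dickkopf proteins such as Dkk1 block the co-receptors, and Axin2, Rnf43 and Znrf3 are induced by the pathway and restrain it.

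Of 38460 deposited cells, 36782 were kept and 34905 lay in 18 clusters named tumour from neuroendocrine markers and the reporter. Between 98.9% and 99.7% of the tumour-named cells of a library held an eGFP UMI, and their median depth was 7805 to 10380 UMIs. Summed tumour counts ran from 20238253 UMIs in brain replicate 1 to 62579065 in subcutaneous replicate 2. In a principal component analysis of these sums, subcutaneous replicate 1 stood at -22.7 on the first axis, between the brain libraries (-88.5 and -75.8) and the other liver and subcutaneous libraries (36.5 to 39.2), and values without it are given where they change a result. Pairs of libraries shared 20 to 56 cell barcodes.

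Levels are given as CPM, the UMIs of a gene per 1000000 UMIs of the summed cells. Because the method counts RNA 3′ ends, CPM is a level per captured end and is not scaled to gene length. In tumour-named cells, 7 members had a mean of at least 10 CPM over the 8 libraries, 9 lay between 1 and 10 CPM, and 34 lay below 1 CPM. Only Wnt3a and Wnt8a had no UMI in any deposited cell, which with 372293350 UMIs allows up to 0.00806 CPM (3 counts). Intervals and such limits cover counting error only.

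Promoter windows are shown for 4 members on which the tumour-cell results turn: Axin2 and Tcf7, which were lower in brain tumour cells, Sfrp5, which was higher in liver, and Wnt3, the ligand with a mean of at least 10 CPM. Each window runs from 250 bases before to 50 bases after a RefSeq transcript start and is written 5′ to 3′ on the gene's strand. Capitals mark a match to CTTTGAA, to CTTTGAT, to CTTTGTA or to CTTTGTT on either strand, motifs that differ only in their last letters and are the letters that TCF/LEF factors prefer. The coordinates are on GRCm38.p6, the build that also serves the gene positions below (GENCODE annotation), and the sequences are from RefSeq.
Axin2, chr11:108920099-108920398, plus strand: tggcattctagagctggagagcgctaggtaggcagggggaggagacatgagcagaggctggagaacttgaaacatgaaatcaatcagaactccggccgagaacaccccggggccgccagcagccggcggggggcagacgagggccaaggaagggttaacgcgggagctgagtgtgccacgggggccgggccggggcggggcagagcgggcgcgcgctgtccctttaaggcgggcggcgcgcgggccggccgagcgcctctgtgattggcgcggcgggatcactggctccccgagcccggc
Tcf7, chr11:52282965-52283264, minus strand: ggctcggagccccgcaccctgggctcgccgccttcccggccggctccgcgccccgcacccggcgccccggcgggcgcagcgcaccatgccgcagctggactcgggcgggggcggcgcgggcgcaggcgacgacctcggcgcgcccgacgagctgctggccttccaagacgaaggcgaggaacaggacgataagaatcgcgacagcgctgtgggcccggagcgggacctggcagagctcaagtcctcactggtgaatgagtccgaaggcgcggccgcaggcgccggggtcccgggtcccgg
Sfrp5, chr19:42202203-42202502, minus strand: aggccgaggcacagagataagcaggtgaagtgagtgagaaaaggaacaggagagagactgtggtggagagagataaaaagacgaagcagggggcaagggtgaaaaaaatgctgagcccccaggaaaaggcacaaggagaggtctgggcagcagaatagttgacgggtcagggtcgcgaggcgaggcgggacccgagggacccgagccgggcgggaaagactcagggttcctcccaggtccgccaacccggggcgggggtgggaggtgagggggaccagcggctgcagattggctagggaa
Wnt3, chr11:103773925-103774224, plus strand: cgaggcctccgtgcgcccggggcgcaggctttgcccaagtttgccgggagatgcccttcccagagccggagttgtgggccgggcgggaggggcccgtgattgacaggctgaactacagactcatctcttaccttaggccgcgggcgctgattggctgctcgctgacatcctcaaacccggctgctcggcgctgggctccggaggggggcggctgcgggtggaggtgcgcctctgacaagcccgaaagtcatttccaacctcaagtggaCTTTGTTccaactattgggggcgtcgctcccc
The Axin2, Tcf7 and Sfrp5 windows held no match, and the Wnt3 window held 1, starting 18 bases after the first transcribed base. Tcf7 had another window (chr11:52282546-52282845), which also held no match. Whether either window lies at the start of the full-length form was not tested, and their lack of a match says nothing of that start. Windows were given for 34 of the 50 members (43 windows), of which 7 held a match, while 16.9% of all 32851 windows of this length held one. These letters say nothing of sites outside the windows.

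Tests between sites were run on 27 of the 50 members, since the other 23 had too few UMIs (at most 0.346 CPM in any library). A member is called changed at an adjusted p under 0.05 by edgeR's quasi-likelihood test with Benjamini-Hochberg adjustment over all 13707 genes tested. Between brain and liver tumour cells 7 of 27 members were called (25.9%), beside 21.9% of all genes. Of them 4 were higher in brain (14.8%, beside 14.0% of all genes) and 3 lower (11.1%, beside 7.99%). Between brain and subcutaneous tumour cells 5 of 27 were called (18.5%, beside 15.8%), of which 1 was higher in brain (3.70%, beside 9.75%) and 4 lower (14.8%, beside 6.06%). Between liver and subcutaneous tumour cells 1 of 27 was called (3.70%, beside 3.68%), higher in liver (beside 1.23% of all genes called higher and 2.44% called lower). The shares of members called were thus close to those of all genes in each comparison. Both brain comparisons use the same 2 brain libraries. Dkk3, called higher in brain in both, had enough UMIs to be tested only through those libraries. The median log2 fold change of the tested members was 0.02, -0.14 and -0.20 in the 3 comparisons in this order, and that of all genes 0.02, 0.01 and -0.01.

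**Figure D1:**
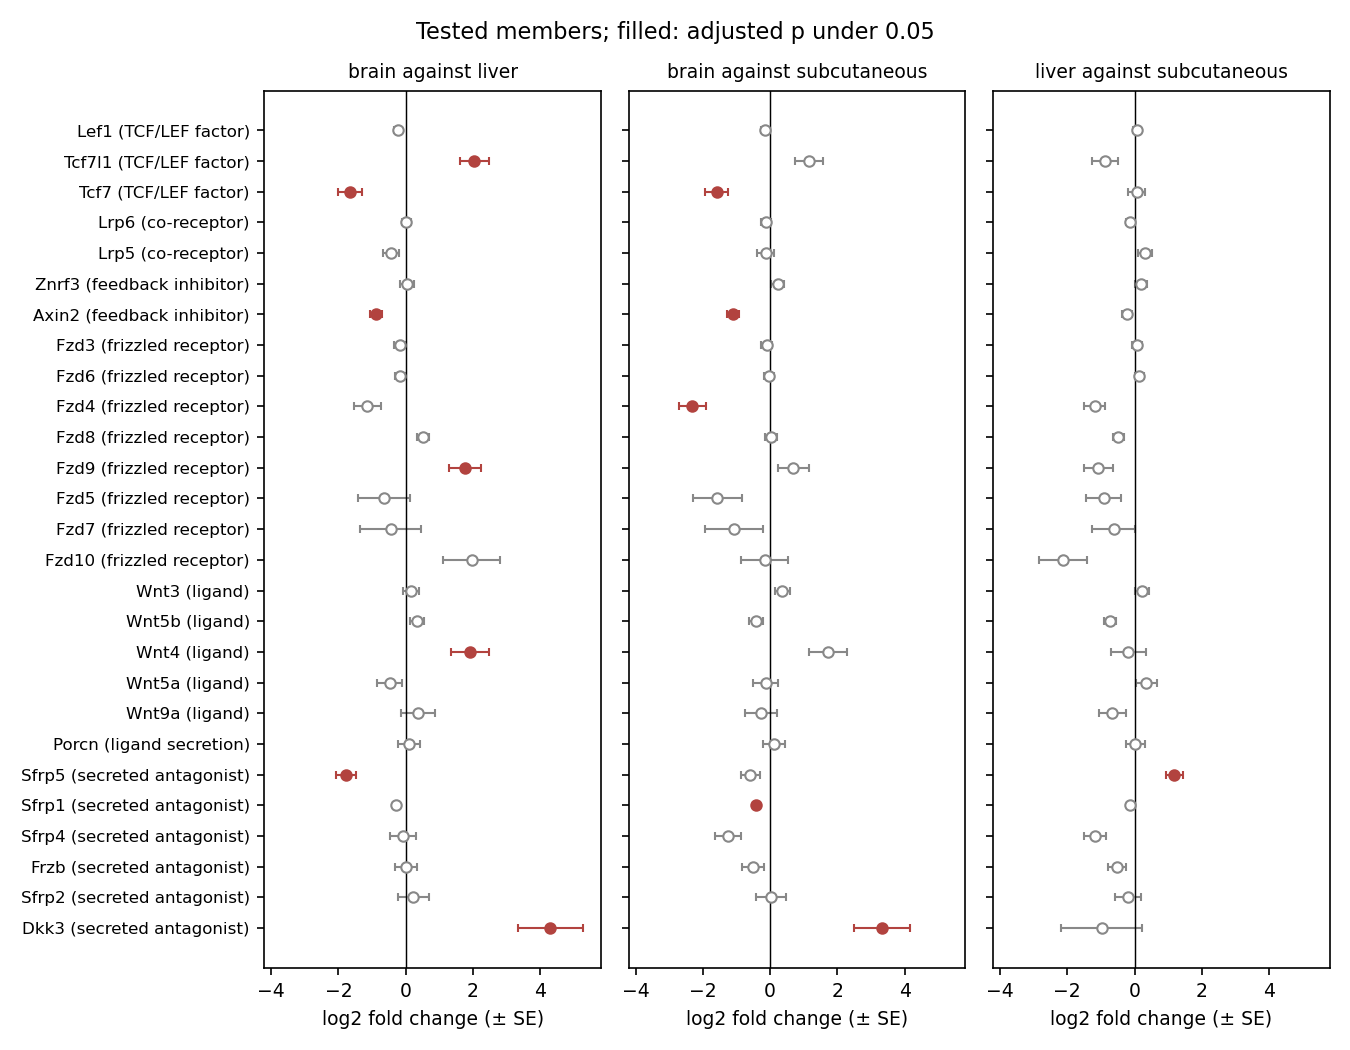
Log2 fold change of each of the 27 tested members in tumour-named cells, with its standard error, in the 3 comparisons of sites. Filled red points passed an adjusted p under 0.05, which were 7, 5 and 1 members, and most members sit near 0.

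Among the secreted antagonists, Sfrp5, a secreted Frizzled-related protein, was higher in liver than in brain and in subcutaneous tumours. It stood at 57.6 and 54.3 CPM in brain, 191, 209 and 135 in liver, and 53.7, 96.9 and 104 in subcutaneous tumours. All liver libraries lay above all others, and subcutaneous replicate 1 lay with the brain libraries. Sfrp5 was 3.41-fold lower in brain than in liver (log2 fold change -1.77, SE 0.30, adjusted p = 0.00390) and 2.27-fold higher in liver than in subcutaneous tumours (log2 1.18, SE 0.25, adjusted p = 0.0376), and it was the 1 member called between those 2 sites. The liver against subcutaneous call was lost without either other subcutaneous library, without liver replicate 1 or 2 and without either brain library, at adjusted p up to 0.157. It was also lost with no filter on low genes, with all deposited cells, with only the compared sites fitted and in the En1-high clusters described below (adjusted p = 0.0539 to 0.116). Against subcutaneous tumours the brain value was not past the threshold (log2 -0.59, SE 0.28, adjusted p = 0.191).

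The same order stood in the share of tumour cells with an Sfrp5 UMI after each cell was thinned to 3000 UMIs. It was 13.7% and 11.5% in brain, 39.0%, 41.4% and 28.8% in liver, and 10.3%, 20.1% and 20.8% in subcutaneous tumours. Without thinning the shares ran from 23.4% in subcutaneous replicate 1 to 69.4% in liver replicate 2. Thinning left out 51 to 199 shallower cells of a library.

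Sfrp1 (chr8:23411502-23449632), another secreted Frizzled-related protein, was at 56.97 and 61.1 CPM in brain, 66.2, 69.3 and 66.8 in liver, and 84.0, 79.1 and 77.1 in subcutaneous tumours. The 3 sites did not overlap. The fold was small, 1.34 lower in brain than in subcutaneous tumours (log2 -0.42, SE 0.09, adjusted p = 0.0175). That call was lost without either brain library and without subcutaneous replicate 2 or 3 (adjusted p = 0.0521 to 0.122), and brain against liver missed the threshold (log2 -0.28, SE 0.09, adjusted p = 0.0558).

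Dkk3 (chr7:112116017-112159057), a Dickkopf family member, was close to the detection limit. Its level was 0.247 and 0.420 CPM in brain (21 UMIs in all), 0, 0.0210 and 0.0215 in liver (2 UMIs) and 0.0479, 0 and 0.0575 in subcutaneous tumours (5 UMIs). Both brain libraries lay above all 6 others. The ratio of pooled CPM was 25.8 for brain over liver (95% counting interval 6.32 to 227) and 11.3 for brain over subcutaneous (4.14 to 38.2). Both fitted differences passed the threshold (adjusted p = 0.0121 and 0.0274). Dkk3 had enough UMIs to be tested only through its brain libraries, however, so these calls are no separate evidence of a higher level in brain. The call against subcutaneous tumours was lost without brain replicate 1, liver replicate 2, or subcutaneous replicate 2 or 3 (adjusted p = 0.0506 to 0.0860). It was also lost with DESeq2, with all deposited cells and with only the compared sites fitted (adjusted p = 0.0568 to 0.0963). Among host cells, an unnamed group of 32 brain cells led by Ttr, Clu and Mt3 held Dkk3 at 160 CPM (14 UMIs). All 8 markers of astrocytes had UMIs in the tumour sums, together 60.7 to 73.0 CPM in brain, 16.2 to 18.3 in liver and 37.8 to 42.6 in subcutaneous libraries, with Aqp4 and Gfap at 0 in liver. Their part in the Dkk3 value was not tested.

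The remaining antagonists were low. Sfrp2, Sfrp4 and Frzb lay between 0.284 and 1.36 CPM and were not called, and Wif1, Dkk1, Dkk2 and Dkk4 had 2 to 13 UMIs over all tumour cells. Sfrp4 came near the threshold, at 0.593 and 0.368 CPM in brain and 0.790, 1.36 and 1.21 in subcutaneous tumours (log2 -1.26, SE 0.38, adjusted p = 0.0535).

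**Figure D2:**
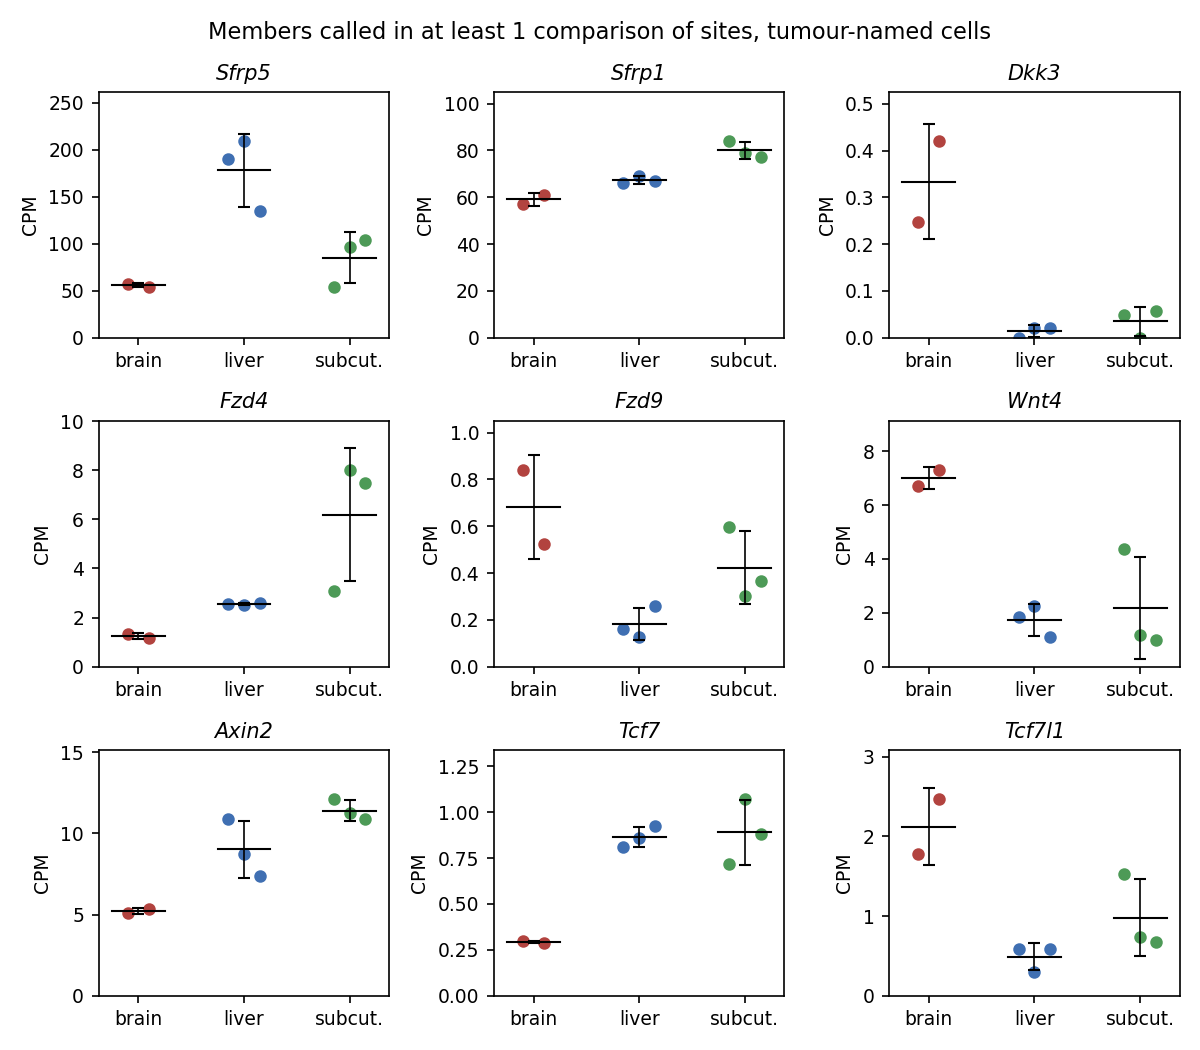
CPM of the 9 members called in at least 1 comparison, 1 point per library in tumour-named cells, with the mean (line) and SD (bars) of each site on axes that start at 0. Sfrp5 is highest in the 3 liver libraries, Axin2 and Tcf7 are lowest in the 2 brain libraries, and Wnt4, Tcf7l1 and Fzd9 of subcutaneous replicate 1 lie closer to brain than those of the other subcutaneous libraries.

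Of the feedback genes, Axin2, a scaffold of the β-catenin destruction complex and a widely used readout of canonical signalling, was at 5.09 and 5.33 CPM in brain, 10.9, 8.72 and 7.40 in liver, and 12.1, 11.2 and 10.9 in subcutaneous tumours. Both brain libraries lay below all 6 others. The level was 1.84-fold lower than in liver (log2 -0.88, SE 0.18, adjusted p = 0.00785) and 2.16-fold lower than in subcutaneous tumours (log2 -1.11, SE 0.18, adjusted p = 0.00491). Without brain replicate 1 both calls narrowly missed the threshold (adjusted p = 0.0619 and 0.0505), as did that against liver without brain replicate 2 (adjusted p = 0.0563). Znrf3, a ubiquitin ligase that removes Frizzled receptors and another feedback gene, did not follow it, with 12.8 and 10.9 CPM in brain, 12.2, 10.6 and 9.50 in liver, and 13.2, 8.61 and 8.96 in subcutaneous tumours. Its libraries overlapped in all comparisons (adjusted p = 0.478 to 0.902). Without subcutaneous replicate 1, Znrf3 was called between brain and subcutaneous tumours, with both brain libraries above the subcutaneous libraries left. Its partner Rnf43 had 1 UMI in all tumour cells.

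Tcf7, a TCF/LEF factor with an amino-terminal β-catenin binding domain in its full-length form, was at 0.297 and 0.289 CPM in brain (6 and 11 UMIs), 0.811, 0.859 and 0.925 in liver, and 0.718, 1.07 and 0.882 in subcutaneous tumours. Brain again lay below all others. It was 3.14-fold lower than in liver (log2 -1.65, SE 0.35, adjusted p = 0.0102) and 3.01-fold lower than in subcutaneous tumours (log2 -1.59, SE 0.35, adjusted p = 0.0174). Without brain replicate 1 or 2 both calls were lost (adjusted p = 0.0546 to 0.107), and the call against subcutaneous tumours was also lost without subcutaneous replicate 2 or 3 (0.0653 and 0.0559) and with only the compared sites fitted (0.0638). When all deposited cells were summed, host cells included, both calls were lost (log2 -0.06 and 0.02, adjusted p = 0.938 and 0.977), and host cells that held Tcf7 are described below.

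Tcf7l1 (chr6:72626378-72789254), which acts mainly as a repressor, went the other way. It was at 1.78 and 2.47 CPM in brain, 0.588, 0.293 and 0.581 in liver, and 1.53, 0.735 and 0.671 in subcutaneous tumours, so that subcutaneous replicate 1 lay nearest to brain. It was 4.11-fold higher in brain than in liver (log2 2.04, SE 0.43, adjusted p = 0.00947, and 0.0908 without brain replicate 2), and brain against subcutaneous was not past the threshold (log2 1.16, SE 0.41, adjusted p = 0.0866). Lef1, the factor of this family with the most UMIs, was not called in any comparison, at 25.9 and 27.0 CPM in brain, 26.9, 29.2 and 30.5 in liver, and 26.4, 30.1 and 32.6 in subcutaneous tumours (adjusted p = 0.221 to 0.791). Tcf7l2 had 19 UMIs in all tumour cells, at 0.247 and 0.184 CPM in brain and at most 0.120 elsewhere.

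Among the ligands, Wnt3, which acts in the canonical pathway, was at 13.4 and 10.0 CPM in brain, 9.96, 9.03 and 10.4 in liver, and 6.20, 10.3 and 10.7 in subcutaneous tumours. The sites overlapped and no comparison was called (adjusted p = 0.315 to 0.676). Of the 19 ligands 16 lay below 1 CPM on average, and Wnt5b lay between 2.24 and 5.03 CPM without a call.

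Wnt4 (chr4:137277489-137299726), a ligand active in female reproductive tract, kidney and muscle development, was at 6.72 and 7.30 CPM in brain, 1.85, 2.26 and 1.10 in liver, and 4.38, 1.17 and 0.997 in subcutaneous tumours. Both brain libraries lay above all 6 others, and subcutaneous replicate 1 came next. It was 3.77-fold higher in brain than in liver (log2 1.92, SE 0.57, adjusted p = 0.0402), and brain against subcutaneous missed the threshold (log2 1.73, SE 0.56, adjusted p = 0.0681). The call against liver was lost without either brain library or any 1 of the liver libraries (adjusted p = 0.0770 to 0.156). It was also lost with no filter on low genes and with all deposited cells (adjusted p = 0.0829 and 0.0864). Without subcutaneous replicate 1, the brain against subcutaneous count rose from 5 to 11 members, among them Wnt4, Tcf7l1, Sfrp5, Sfrp4, Wnt5b and Znrf3. By CPM in the libraries left, Wnt4, Tcf7l1 and Znrf3 were higher in brain, and Sfrp5, Sfrp4 and Wnt5b were lower. The liver against subcutaneous count rose from 1 to 4 without subcutaneous replicate 1, with Fzd4, Sfrp4 and Wnt5b, all lower in liver. The share of all genes called without that library is not given here, so these rises are not read as results about the members.

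Porcn, the acyltransferase that all these ligands need, lay between 1.04 and 2.11 CPM and was not called (adjusted p = 0.853 to 0.986). Wls, their carrier, had 18 UMIs in all tumour cells, 14 of them in brain, where it stood at 0.346 and 0.184 CPM, and 0 to 0.0239 CPM in the other libraries. In the same sums, the 8 microglia markers together stood at 77.8 and 45.0 CPM in brain and 24.0 to 42.0 elsewhere, and the 11 macrophage markers at 127 and 22.7 CPM in brain and 1.62 to 13.1 elsewhere. All of these markers had UMIs, though Sall1 was at 0 in liver and subcutaneous sums and Ms4a7 at 0 in liver. Their part in the Wls and Tcf7l2 values was not tested.

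Lrp5 and Lrp6, the co-receptors, were not called in any comparison. Lrp6 was at 18.6 and 14.3 CPM in brain, 16.8, 14.1 and 14.7 in liver, and 17.4, 17.2 and 19.5 in subcutaneous tumours (adjusted p = 0.604 to 0.940). Lrp5 was at 11.4 and 9.58 CPM in brain, 16.4, 13.9 and 9.27 in liver, and 13.9, 9.81 and 11.2 in subcutaneous tumours (adjusted p = 0.228 to 0.746).

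Among the Frizzled receptors, Fzd4 (chr7:89404355-89413134), which also serves as the receptor of norrin in vessels, was at 1.33 and 1.16 CPM in brain, 2.56, 2.51 and 2.58 in liver, and 3.09, 8.01 and 7.50 in subcutaneous tumours. The 3 sites did not overlap, and subcutaneous replicate 1 lay below its 2 partners. Fzd4 was 4.99-fold lower in brain than in subcutaneous tumours (log2 -2.32, SE 0.40, adjusted p = 0.00672), and the call was lost without either brain library (adjusted p = 0.0578 and 0.0741). The other comparisons missed the threshold (brain against liver log2 -1.14, SE 0.40, adjusted p = 0.0691, and liver against subcutaneous log2 -1.18, SE 0.31, adjusted p = 0.0744). Fzd9 (chr5:135248938-135251230) was low, at 0.840 and 0.525 CPM in brain, 0.162, 0.126 and 0.258 in liver, and 0.599, 0.304 and 0.364 in subcutaneous tumours. Brain lay above liver without overlap (3.41-fold, log2 1.77, SE 0.48, adjusted p = 0.0281) and overlapped with subcutaneous tumours. The call was lost without either brain library and without liver replicate 1 or 2 (adjusted p = 0.0657 to 0.163). Fzd3, Fzd6 and Fzd8 lay between 2.07 and 10.7 CPM with no call, and the other 5 receptors stayed at or below 0.359 CPM.

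Cells were clustered without the 50 members, so their levels could be read across the 18 tumour clusters as a description. Wnt4 and Tcf7l1 were concentrated in 2 clusters that were also high in En1, a homeobox gene, at Wnt4 levels of 28.1 and 14.3 CPM and Tcf7l1 levels of 5.69 and 8.64 CPM. In the other 16 clusters Wnt4 was at most 4.55 CPM and Tcf7l1 at most 0.774 CPM. These clusters, picked after their values were seen by an En1 level at least 5 times that of all tumour cells, made up 742 of 2302 and 1593 of 4019 tumour-named cells in brain, 56 to 98 cells in each liver library, and 416, 120 and 95 cells in the subcutaneous libraries. En1 stood at 97.2 to 151 CPM inside them in every library.

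Inside the En1-high clusters the order of the sites for Wnt4 was the opposite of that in all tumour cells. Wnt4 stood there at 16.3 and 16.9 CPM in brain (95% counting intervals 13.4 to 19.6 and 14.8 to 19.1), 60.9, 113 and 61.8 in liver (lowest bound 40.0), and 29.2, 29.1 and 17.6 in subcutaneous tumours. All liver libraries lay above all others, and the fitted difference between brain and liver was log2 -2.28 (SE 0.26, adjusted p = 4.44e-05). Outside these clusters Wnt4 was at 1.99 and 1.40 CPM in brain, 0.703, 0.701 and 0.564 in liver, and 1.90, 0.667 and 0.759 in subcutaneous tumours, and brain against liver was not called (log2 1.28, SE 0.47, adjusted p = 0.129). The call of higher Wnt4 in brain was therefore seen in the sum over all tumour cells and in neither subset.

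Tcf7l1 and Fzd9 also lost their brain against liver calls outside the En1-high clusters. Tcf7l1 stood there at 0.0739 and 0.170 CPM in brain and 0.517, 0.234 and 0.434 in liver (log2 -1.62, SE 0.59, adjusted p = 0.127). Inside them it was at 5.22 and 6.20 in brain and 4.27, 4.52 and 17.3 in liver (log2 -0.33, SE 0.53, adjusted p = 0.778). The brain values outside rested on 1 and 4 Tcf7l1 UMIs and the liver values inside on 4, 3 and 7. Fzd9 outside was at 0 and 0.212 CPM in brain and 0.145, 0.0637 and 0.260 in liver (log2 -0.33, SE 0.92, adjusted p = 0.867). Inside the clusters Fzd9 was at 2.54 and 1.03 CPM in brain and 1.07, 4.52 and 0 in liver (1, 3 and 0 UMIs). Sfrp1 was low inside them, at 19.8 and 22.9 CPM in brain and 27.9, 47.2 and 32.5 in subcutaneous tumours. Both brain libraries thus lay below the subcutaneous libraries there, though the call was not kept. Outside the clusters brain was no longer below subcutaneous tumours (75.4 and 84.7 against 89.6, 79.7 and 77.8 CPM, log2 -0.00, SE 0.10, adjusted p = 0.991).

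Sfrp5 and Axin2 were read in the same way. Sfrp5 was lower in brain than in liver both inside the En1-high clusters (28.0 and 30.7 against 106, 134 and 66.8 CPM, adjusted p = 0.00439) and outside them (72.3 and 68.8 against 192, 210 and 135 CPM, adjusted p = 0.0169). Axin2 outside them was at 5.39 and 6.24 CPM in brain, 11.0, 8.73 and 7.44 in liver, and 12.3, 11.3 and 10.8 in subcutaneous tumours. Its call against subcutaneous tumours was kept there (log2 -0.94, SE 0.19, adjusted p = 0.0249) and that against liver just missed the threshold (log2 -0.70, SE 0.19, adjusted p = 0.0523). Inside them Axin2 was at 4.48 and 3.86 CPM in brain, 4.27, 7.53 and 2.47 in liver, and 10.5, 6.36 and 13.5 in subcutaneous tumours. Brain and liver overlapped there, and the liver values rested on 4, 5 and 1 Axin2 UMIs. Neither call was kept (log2 -0.30, SE 0.58, adjusted p = 0.820 against liver, and log2 -1.23, SE 0.38, adjusted p = 0.107 against subcutaneous tumours). Tcf7 kept both calls outside them, with 0.148 and 0.127 CPM in brain (log2 -2.73 and -2.66, adjusted p = 0.00927 and 0.0123), and Fzd4 kept its call against subcutaneous tumours (log2 -2.07, adjusted p = 0.0229).

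**Figure D3:**
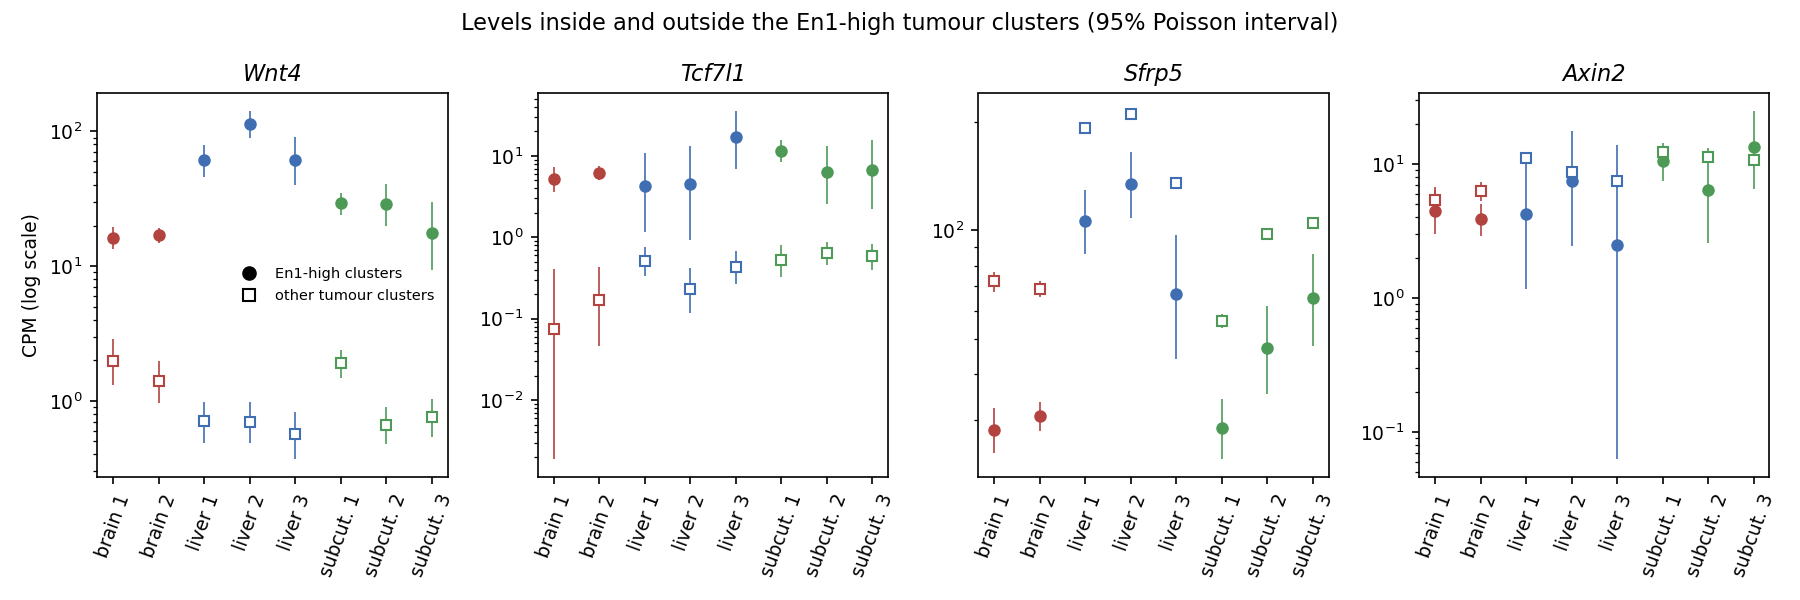
CPM on a log axis of Wnt4, Tcf7l1, Sfrp5 and Axin2 in each library, inside (filled circles) and outside (open squares) the 2 En1-high tumour clusters, with 95% Poisson intervals. Wnt4 inside the clusters is highest in the 3 liver libraries (60.9 to 113 CPM), and Sfrp5 is lower in brain than in liver in both sets.

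In single clusters with at least 50 cells in each library compared, both brain libraries lay below all 3 liver libraries in 6 of 7 clusters for Sfrp5 and in 4 of 7 for Axin2. Against the subcutaneous libraries this held for Axin2 in 5 of 9 clusters and for Sfrp5 in 0 of 9, where brain lay above in 1. Sfrp1 lay lower in brain than in all subcutaneous libraries in 6 of 9 clusters, though its sum outside the En1-high clusters did not differ past the threshold, and lower than in all liver libraries in 2 of 7 and higher in 1. Tcf7 lay lower in brain in 3 of 7 clusters against liver and 3 of 9 against subcutaneous tumours. Fzd4 did so in 2 of 7 and in 1 of 9. Many of the Tcf7 and Fzd4 values rested on a few UMIs or none. In the cluster led by Igfbpl1 and Chgb, Fzd4 had 0 and 1 UMIs in the brain libraries and 0 in subcutaneous replicate 1. Such counts cannot show whether the lower sums of Tcf7 and Fzd4 in brain held within single clusters. Sfrp5 ranged from 9.34 CPM in a cluster led by Nupr1 and Trib3 to 263 CPM in one led by Kcnh3 and Calb1, and Sfrp1 was highest, at 155 CPM, in a cluster led by Islr2 and Tfap2a. Fzd4 was highest in 3 clusters led by Bnip3, Egln3 or Nupr1, genes of the response to low oxygen or stress, at 10.7, 13.5 and 18.9 CPM. The latter 2 of these clusters reached 50 cells only in subcutaneous libraries.

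Other genes of the pathway, from 6 lists, were tested in the same fit. Their counts stand beside the shares of all genes called, which were 14.0% higher and 7.99% lower in brain against liver, 9.75% and 6.06% in brain against subcutaneous, and 1.23% and 2.44% in liver against subcutaneous. Of 13 tested receptor helpers 3 were higher and 1 lower in brain than in liver, and 1 higher and 1 lower in brain than in subcutaneous tumours. Ror2, a receptor tyrosine kinase for Wnt5a, was called in both. It stood at 2.62 and 2.10 CPM in brain, 0.0406, 0 and 0.129 in liver, and 0.575, 0.0639 and 0.153 in subcutaneous tumours (log2 5.24, SE 0.91, adjusted p = 0.00412, and log2 3.24, SE 0.76, adjusted p = 0.0215). Ror2 had enough UMIs to be tested only through its brain libraries. Kremen1, a receptor for Dickkopf proteins, was higher in liver, with 6.98, 6.73 and 4.17 CPM there, 3.30, 2.99 and 3.38 in subcutaneous tumours and 3.76 and 2.47 in brain (liver against subcutaneous log2 1.00, SE 0.23, adjusted p = 0.0480).

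Of the 6 other inhibitors tested, 3 were higher in brain than in liver, 2 higher in brain than in subcutaneous tumours and 2 lower in liver than in subcutaneous tumours, beside 14.0%, 9.75% and 2.44% of all genes. Igfbp4, an insulin-like growth factor binding protein that can also bind Wnt receptors, was called in all 3, at 13.0 and 13.8 CPM in brain, 0.710, 0.440 and 0.387 in liver, and 4.81, 1.90 and 1.496 in subcutaneous tumours (brain against liver log2 4.60, SE 0.47, adjusted p = 0.000501). Notum, an enzyme that strips the lipid from Wnt ligands and is itself a target gene, was low. It was higher in brain, at 0.494 and 0.604 CPM, than in liver (0.0811, 0.189 and 0.0860) and in subcutaneous tumours (0.0239, 0.0639 and 0.0767), with adjusted p = 0.0206 and 0.00730. These values rested on 10 and 23 UMIs in brain and 1 to 9 elsewhere, and Notum had enough UMIs to be tested only through its brain libraries. Shisa2, which holds Frizzled receptors in the endoplasmic reticulum, was low in liver, at 0.791, 0.649 and 0.860 CPM against 3.78, 2.88 and 2.69 in subcutaneous and 4.10 and 4.36 in brain tumours (liver against subcutaneous log2 -1.91, SE 0.21, adjusted p = 0.00237).

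Of the 8 target genes tested, Notum included, 2 were higher in brain than in liver, and 2 were higher and 2 lower in brain than in subcutaneous tumours, beside 14.0%, 9.75% and 6.06% of all genes. Axin2, also a target, was called lower in brain and Notum higher, but Notum was tested only through its brain level. Their calls are therefore not set against each other. Nkd1, a target at 20.9 to 32.1 CPM over the libraries, was called in no comparison (adjusted p = 0.102 to 0.690). Myc, a growth regulator, was lower in liver than in subcutaneous tumours, at 2.58, 2.26 and 2.82 against 6.37, 5.69 and 7.08 CPM (log2 -1.21, SE 0.22, adjusted p = 0.0225). At 2.92 and 1.52 CPM in brain, it was also lower there than in subcutaneous tumours (log2 -1.54, SE 0.27, adjusted p = 0.00649). Myc was not called between brain and liver (adjusted p = 0.401). The destruction complex and signal relay list had 0 of 19 genes higher and 2 lower in brain in each brain comparison, beside 7.99% and 6.06% of all genes called lower, Csnk1d, a casein kinase, being called in both (77.5 and 63.9 CPM in brain, 91.7 to 109 in liver, 91.6 to 131 in subcutaneous tumours, adjusted p = 0.0379 and 0.0219). Between liver and subcutaneous tumours 0 of its 19 genes were called. Among 10 planar polarity genes Daam1, a formin, was lower in brain (13.0 and 13.4 CPM) than in liver (17.6 to 18.7) and subcutaneous tumours (17.1 to 20.5), with adjusted p = 0.0109 and 0.0214. Among 11 nuclear partners 1 was higher and 1 lower in brain than in liver, beside 14.0% and 7.99% of all genes. Tle1, a corepressor of TCF/LEF factors, was lower in liver, at 36.5, 34.3 and 36.1 CPM against 57.5, 50.1 and 49.1 in subcutaneous tumours (log2 -0.44, SE 0.09, adjusted p = 0.0318). It stood at 55.1 and 50.3 CPM in brain, higher than in liver (log2 0.47, SE 0.10, adjusted p = 0.0101). The median log2 fold changes of the 6 lists ran from -0.20 to 1.21 in brain against liver, from -0.04 to 0.47 in brain against subcutaneous and from -0.57 to 0.15 in liver against subcutaneous, beside 0.02, 0.01 and -0.01 for all genes.

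Host cells were named from marker lists, and 6 host classes reached 20 cells in at least 1 library. Microglia came from brain only, macrophages from brain, liver replicate 2 and subcutaneous replicate 1, endothelial cells, dendritic cells and neutrophils from brain replicate 1, and fibroblasts from subcutaneous replicate 1. With so few libraries no class was tested between sites, and each value is a description with a counting interval. A reporter UMI was present in 8.33% to 59.1% of the cells of these groups, and doublets were not removed. A group of 59 cells with macrophage markers, of which 93.2% held the reporter, was kept out of the classes.

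Wls, the carrier of Wnt ligands, stood far higher in several host classes than in tumour cells. In microglia it stood at 73.7 CPM (62.7 to 86.2) in brain replicate 1 and 122 (88.1 to 164) in brain replicate 2, in macrophages at 22.8, 26.2 and 22.2 CPM in brain replicates 1 and 2 and subcutaneous replicate 1, and in fibroblasts at 76.0 CPM (49.6 to 111). Of the microglia of brain replicate 1, 25.5% held a Wls UMI (exact 95% interval 21.7 to 29.6%) at a median depth of 3926 UMIs, while 0.304% of its tumour cells did (0.122 to 0.626%) at 7805 UMIs. Tcf7l2 was at 20.1 and 28.3 CPM in microglia and 20.4 and 30.6 CPM in brain macrophages, against 0.247 and 0.184 CPM in the tumour cells of those libraries. Lrp5 was at 22.9 CPM in microglia of brain replicate 1, beside 11.4 in its tumour cells.

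Fibroblasts of subcutaneous replicate 1 (77 cells) held secreted antagonists that were low in the tumour cells, and also Sfrp1, which both held. Sfrp2 was at 853 CPM (758 to 957) and Sfrp4 at 248 CPM (198 to 307), and in the tumour cells of that library at 0.646 and 0.790 CPM. Sfrp1 was at 219 CPM in fibroblasts beside 84.0 in tumour cells. Dkk2 was at 52.6 CPM there, and the ligands Wnt2 and Wnt11 at 90.6 and 32.1 CPM, from 31 and 11 UMIs. Wnt2 had 0 UMIs in the tumour cells of the library. Fzd4 (32.1 CPM) and Lrp6 (35.1 CPM) were the receptors that passed 20 CPM.

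Endothelial cells of brain replicate 1 (62 cells) held Lef1 at 142 CPM (101 to 193), Fzd6 at 78.1, Tcf7 at 49.7 (27.2 to 83.4) and Fzd4 at 46.2 CPM. In brain endothelium canonical Wnt signalling maintains the blood-brain barrier and Fzd4 acts as a receptor in it. In the tumour cells of that library Lef1 was at 25.9, Fzd6 at 6.57, Tcf7 at 0.297 and Fzd4 at 1.33 CPM. Dendritic cells of the same library held Tcf7 at 78.1 CPM (37.4 to 144) from 10 UMIs in 23 cells, and microglia and macrophages held 0 Tcf7 UMIs in every library given.

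**Figure D4:**
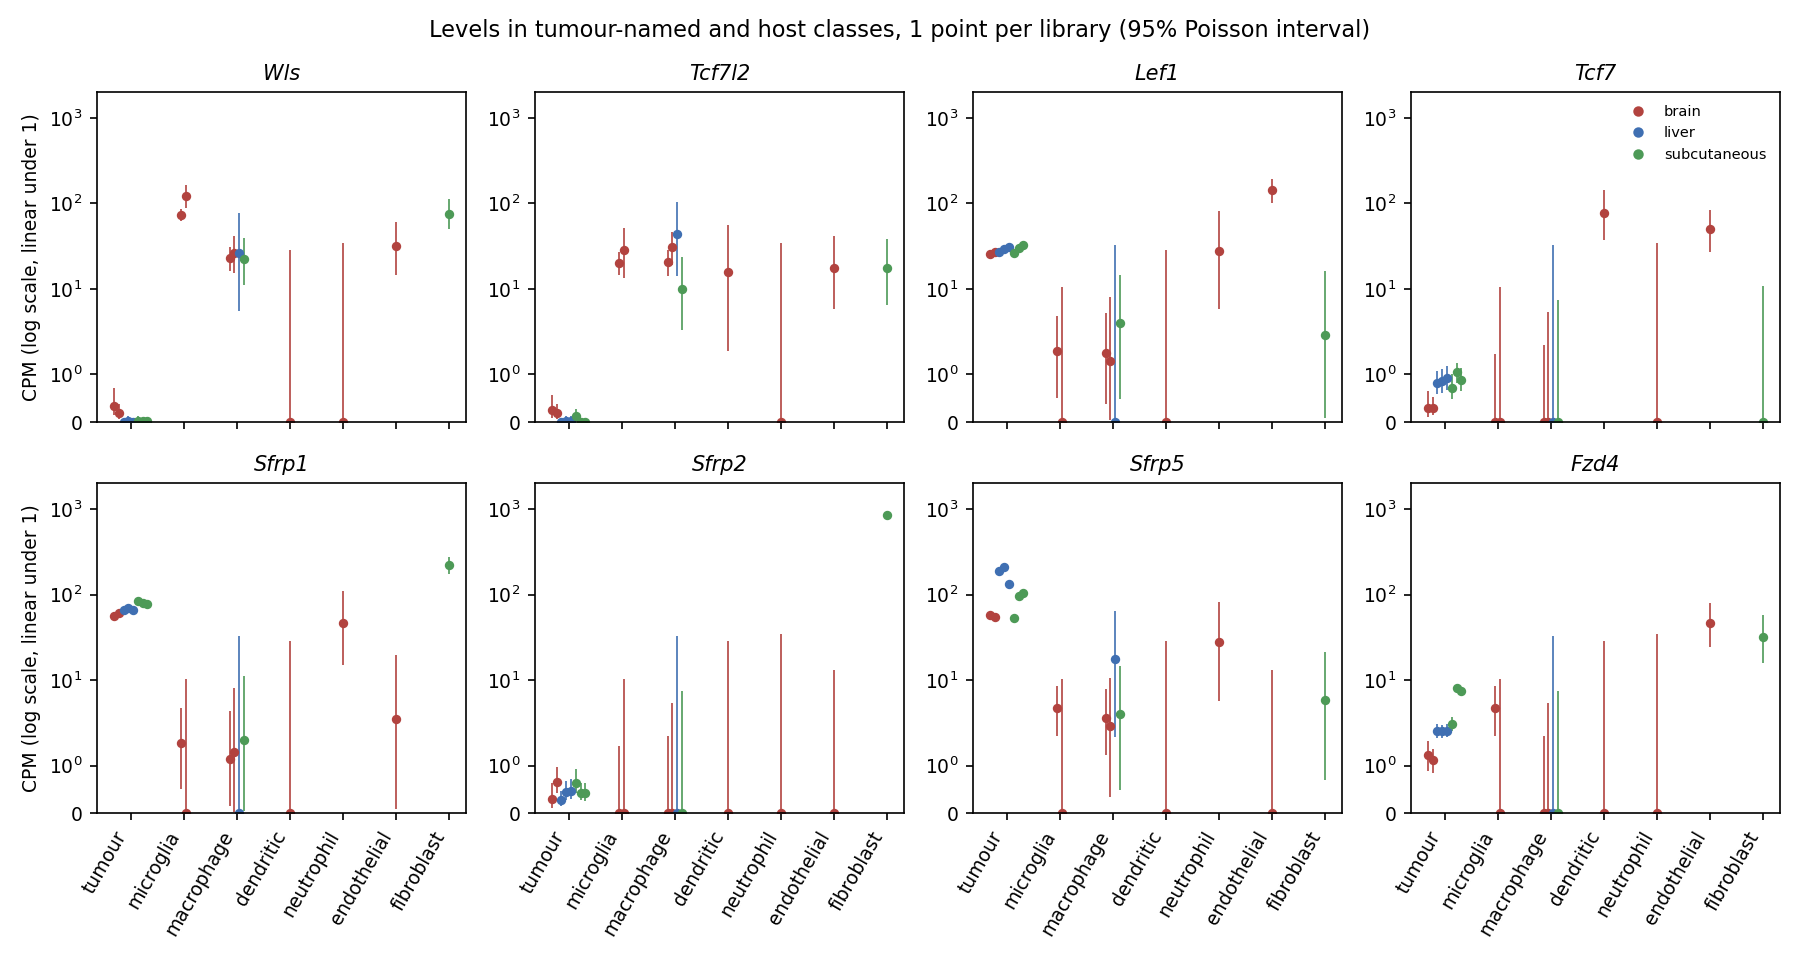
CPM of 8 members in tumour-named cells and 6 host classes, 1 point per library with at least 20 cells of the class, coloured by site, with 95% Poisson intervals on a log axis that is linear under 1 CPM. Wls and Tcf7l2 are near 0 in tumour cells and above 20 CPM in microglia, Sfrp2 reaches 853 CPM in fibroblasts, and Sfrp5 is above 50 CPM only in tumour cells.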

How the data were processed

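Counts of UMIs per gene and cell were deposited by the authors as 1 matrix per library, as raw whole numbers per the file headers. The headers name Cell Ranger 3.0.0, and the submitters' processing notes name STAR and the mm10 build. Cells with at least 500 genes, at most 10% mitochondrial and at most 1% haemoglobin UMIs were kept. The haemoglobin limit, chosen after seeing the data, removed 15 cells. Cells were clustered in scanpy 1.11.5 (2000 variable genes without the 50 members, 30 components, 15 neighbours, Leiden resolution 1) and named from 19 marker lists (at least 3 markers in at least 20% of cells). Host cells were clustered again at resolution 1.5. No doublet caller was run. UMIs were summed per class and library, and CPM computed from the sums.

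Sites were compared in edgeR 4.0.16 (R 4.3.3) with filterByExpr, TMM factors and robust quasi-likelihood F tests. All 8 libraries entered 1 fit with site as the factor, which left 5 residual degrees of freedom at a biological variation of 15.6%, with Benjamini-Hochberg adjustment over all 13707 genes. Standard errors were taken as log2 fold change over √F. Genes left out held 0.0131% of UMIs. The members and lists were chosen with earlier results of these data known. Members called, or with a mean of at least 10 CPM, are given in every library. Host values are named from 10 UMIs and 20 CPM. From the lists, genes called in both brain comparisons or between liver and subcutaneous tumours are named, and Nkd1 was added. On simulated counts of 13494 genes, the test recovered 79% of 2-fold and 99% of 4-fold changes in brain against liver, with 5.32% false calls, and 76% and 98% in brain against subcutaneous, with 4.92%. Whether these recovery rates hold below 1 CPM, where Dkk3, Tcf7 and Fzd9 lay on average, was not tested. Libraries of a site differed beyond sampling noise (chi-square per gene 6.17 to 87.0). Alternatives are DESeq2 1.42.0, other size factors, filters and cell sets, a replicate block and leaving out each library, and 2 settings on the En1-high clusters were added after seeing the data.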

Additional observations from a re-analysis of the deposited data

How the results depend on the processing

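Counts of members called are given for brain against liver, brain against subcutaneous and liver against subcutaneous (7, 5 and 1 in the reported fit). The share of all genes called is given for the reported fit only, so changes in these counts are not read as results about the members. DESeq2 gave 10, 5 and 3. No filter on low genes gave 7, 6 and 0, and a filter at 5 CPM in 2 libraries gave 3, 3 and 1, where fewer members were tested. Summing all deposited cells gave 9, 4 and 0, and fitting only the sites compared gave 8, 3 and 0. Cells outside the En1-high clusters gave 2, 3 and 2, and only those clusters 2, 0 and 1. RLE factors, eGFP-positive cells, equal cell numbers and clustering with the members left in moved no count by over 1.5 times. Where no cause is named, the cause was not tested.

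With the replicate block the counts were 7, 4 and 0, and the reported calls of Wnt4 in brain against liver, Dkk3 in brain against subcutaneous and Sfrp5 in liver against subcutaneous were not made (adjusted p = 0.0575, 0.0565 and 0.0887). Same-numbered libraries did not deviate together (correlations -0.123 to 0.119), so the numbers were not taken as pairs.

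Leaving out 1 library at a time gave 1 to 10, 0 to 11 and 0 to 4. The counts were 3, 0 and 0 without brain replicate 1, 1, 1 and 0 without brain replicate 2, and 10, 11 and 4 without subcutaneous replicate 1. Without subcutaneous replicate 2 or 3 the second count was 2. Sfrp5 and Dkk3 in brain against liver kept their calls in every leave-one-out fit in which they were tested. Dkk3 entered those fits only through its brain level. Of 13 member results, the direction turned for Wnt4 (log2 -2.28) and Tcf7l1 (-0.33) in only the En1-high clusters and for Tcf7l1 (-1.62) and Fzd9 (-0.33) outside them. It also turned for Tcf7 in brain against subcutaneous with all deposited cells (0.0228). The turns of Tcf7l1 and Fzd9 rested on few UMIs in at least 1 of the sites.

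A gene at 1 CPM rests on about 20 UMIs in the shallowest library, so counting limits Dkk3, Tcf7, Fzd9 and Tcf7l1, and 2 brain libraries limit every brain comparison.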

Other observations

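A group of 73 cells lay outside the tumour sums, 98.6% of them with an eGFP UMI, led by the airway genes Bpifa1, Bpifb1 and Scgb3a2. Wnt5b, a ligand of the non-canonical pathway, stood there at 63.4 CPM (95% counting interval 47.1 to 83.6, 50 UMIs), and at 56.6 and 53.9 CPM in the cells from liver replicates 1 and 2 alone, while it lay between 2.24 and 5.03 CPM in the tumour sums of the 8 libraries. Sfrp5 was at 97.7 CPM (77.1 to 122) and Sfrp1 at 34.3 CPM (22.6 to 49.8) in the same cells. The group held 23, 29 and 5 cells of the liver libraries, 3 of the brain libraries and 13 of the subcutaneous libraries, and was not compared between sites.

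Cells of an unnamed group led by Cd209a and Mgl2, which also held macrophage markers, had Wls at 28.9 CPM (15.4 to 49.4, 13 UMIs in 60 cells).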
